A study of Homo sapiens with 9 samples.

Results

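The 10 genes described here encode transcription factors that set basal identity in mammary epithelium or govern the switch between epithelial and mesenchymal states: TP63, TFAP2A, SOX9, SNAI2, ZEB1, ELF3, EHF, GRHL1, GRHL2 and OVOL1. They were picked by symbol out of 25801 named genes, and 9 of them had at least 1 read in any library. They were measured by SLAM-Seq, in which a pulse of 4-thiouridine (4sU) enters RNA while it is being made, iodoacetamide modifies the 4sU, and the modified base is then read as C instead of T. The T>C conversion rate, the percentage of T positions in an mRNA that were read as C, therefore rises with the share of that mRNA made during the pulse. The reads scaled to library size (CPM) measure its total level, old and new together.

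All cells were MCF10A, a non-transformed human mammary epithelial line, in which the JUN gene had been knocked out and JUN put back as a fusion to a V5 tag and an auxin-inducible degron (JUN-AID-V5). They also expressed TIR1, the plant receptor through which indole-3-acetic acid (IAA) sends the fusion protein to the proteasome. A first group of 3 libraries received no 4sU, and its labels do not say whether DMSO was added. A second group of 3 received DMSO for 1 h and 100 µM 4sU for a further 1 h, and the third received 100 µM IAA for 1 h followed by the same pulse. JUN thus came only from the introduced construct in every group, controls included, and IAA acts on the JUN protein, so that JUN mRNA is no check of its loss. The 3 columns of the IAA group held identical values in each of the 56868 rows and were counted as 1 library, so that IAA could be compared with DMSO as values only, with no test. The study describes its replicates as biological, and p-values measure the spread between these libraries. In bulk RNA, fewer cells with an mRNA and less of that mRNA per cell cannot be told apart.

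Basal mammary cells contact the basement membrane and depend on TP63, the p53 family member that maintains stratified epithelia. Epithelial-mesenchymal transition (EMT) is driven by zinc-finger repressors such as SNAI2 (Slug) and ZEB1, which bind E-box motifs in epithelial genes including CDH1. The Grainyhead-like factors GRHL1 and GRHL2, the OVOL repressors and the epithelial ETS factors ELF3 and EHF hold the epithelial state, and the microRNAs of the miR-200 family repress ZEB1 while ZEB1 represses them.

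The libraries held 18997637 to 24014195 reads, with 3 reads equal to 0.125 to 0.158 CPM. All 10 markers of basal epithelium were read in every library, at a summed level of 4709 to 6477 CPM. Markers of luminal epithelium summed to 287 to 353 CPM, with ELF5 and TFF1 at 0 in every library. The mesenchymal markers summed to 676 to 1380 CPM, mostly from VIM and FN1, and COL1A2 was at 0. Immune markers summed to 1.68 to 7.93 CPM with PTPRC and CD3E at 0, and endothelial markers to 0.179 to 1.08 CPM with VWF and CDH5 at 0. The median conversion rate of a gene was 0.0575% to 0.0598% in the libraries without 4sU, 0.181% to 0.241% with DMSO and 4sU, and 0.222% with IAA and 4sU.

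TFAP2A, encoding the AP-2 alpha factor of ectodermal and mammary epithelium, was the most abundant of the 10 mRNAs and SNAI2 the next. In the labeled DMSO libraries TFAP2A ranged from 141 to 187 CPM, SNAI2 from 18.8 to 26.8, TP63 from 15.9 to 17.6, EHF from 9.82 to 17.1, SOX9 from 2.75 to 8.88, GRHL1 from 2.21 to 2.69, ZEB1 from 1.39 to 2.72, ELF3 from 0.329 to 1.24 and OVOL1 from 0.0416 to 0.349 CPM. These levels were not divided by length, since 3′ end sequencing counts fragments from the end of an mRNA and not along it. Neighbors in this order whose ranges overlapped were TP63 and EHF, GRHL1 and ZEB1, and ELF3 and OVOL1. The other neighbors did not overlap, although SOX9 and GRHL1 were separated by under 3 reads. In the libraries without 4sU, TFAP2A, SNAI2 and TP63 again did not overlap, whereas ZEB1, at 3.21 to 5.63 CPM, overlapped with GRHL1, at 0.989 to 4.60 CPM. TFAP2A alone took 54.1% to 79.2% of the reads of the 10 genes.

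GRHL2, a Grainyhead-like activator of epithelial junction genes, was listed at 0 in each of the 7 libraries, over 1 interval of 3024 bases. A count of 0 allows up to 3 reads, or 0.125 to 0.158 CPM, a limit that covers counting error only. Other epithelial genes were read well in the same libraries. EPCAM, an epithelial adhesion molecule, had 2461 to 3324 reads and CDH1 had 1481 to 4717. Zeros were common in the table, with 8960 genes, or 34.7%, at 0 in every library. Some genes used by every cell were read few times, such as RPS18 with 22 to 108 reads and EEF1A1 with 341 to 645, although none of those checked was at 0. Whether the counting interval contributed to the zeros of GRHL2 was not tested.

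**Figure D1:**
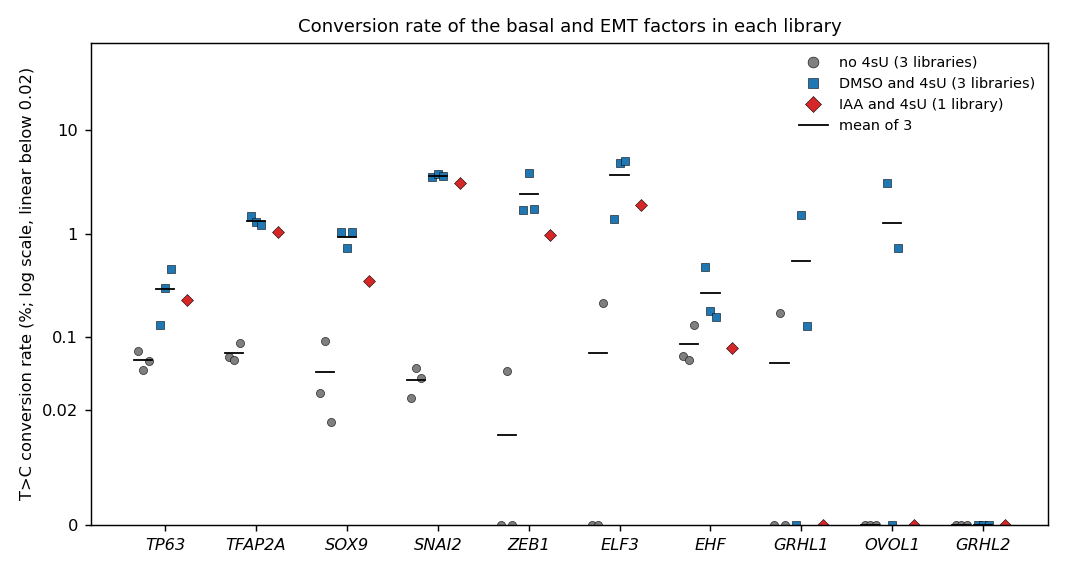
T>C conversion rate in percent (log scale, linear below 0.02%) of the 10 factors in the 3 libraries without 4sU (circles), 3 with DMSO and 4sU (squares) and 1 with IAA and 4sU (diamond); bars are means of 3. For 7 factors every DMSO and 4sU library lies above every library without 4sU, and SNAI2 sits between 3.55% and 3.79%.

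SNAI2 (NM_003068), on the minus strand of chromosome 8 from 49830157 to 49834299 by the GENCODE annotation of GRCh37, was labeled most strongly among the factors with ample reads. Its conversion rate was 0.0258%, 0.0506% and 0.0410% in the 3 libraries without 4sU. It was 3.55%, 3.79% and 3.60% in those with DMSO and 4sU, from 452 to 539 reads each. The labeled libraries lay close together and far above the unlabeled ones, with means of 3.64% ± 0.126 (SD, n = 3) and 0.0391% ± 0.0125 (SD, n = 3). The difference was 5.38 on the log2(rate + 0.0005) scale (SE 0.21, limma adjusted p = 4.9e-06). Of the 7077 genes, only 30 others had a mean labeled rate at least as high as that of SNAI2, which stood at the 99.6th percentile. The median gene was at 0.210%.

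TFAP2A (chromosome 6, 10393419 to 10419892, minus strand) followed with rates of 1.50%, 1.30% and 1.20% after the pulse. Without 4sU it gave 0.0646%, 0.0599% and 0.0878%. The groups did not overlap, the difference was 3.52 (SE 0.24, limma adjusted p = 5.8e-05), and the mean labeled rate of 1.33% ± 0.149 (SD, n = 3) was at the 97.6th percentile of genes. These values rest on 3008 to 5871 reads per library.

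TP63 (chromosome 3, 189349178 to 189615065, plus strand) was labeled closer to the typical level. It gave 0.132%, 0.301% and 0.454% in the labeled DMSO libraries and 0.0740%, 0.0486% and 0.0596% in the unlabeled ones. The lowest labeled value was above the highest unlabeled one, but the labeled libraries spread more than 3-fold. The difference was 1.53 (SE 0.39, limma adjusted p = 0.012), and the 69.4th percentile places TP63 well below SNAI2 and TFAP2A. When the intervals of TP63 were averaged without weighting by reads, the difference was 0.63 and the adjusted p was 0.30.

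EHF (chromosome 11, 34642640 to 34684835, plus strand), an ETS factor of glandular and stratified epithelia, had the weakest labeling of the factors tested. Its rate was 0.473%, 0.178% and 0.158% with DMSO and 4sU and 0.0664%, 0.0602% and 0.132% without. The first labeled library stood apart from the other two, and the lowest labeled value lay just above the highest unlabeled one. The difference of 1.14 (SE 0.42) passed with a limma adjusted p of 0.043. Without that first DMSO library it was 0.72 with an adjusted p of 0.085, and without the first or second library lacking 4sU the adjusted p was 0.11 and 0.12. All 4 factors with at least 200 reads on average were thus higher after the pulse. Of all 7077 genes tested, 65.4% were higher, and 0.0565% were lower, with a median difference of 1.14, so that a rise itself was the rule among genes, and the factors differ from one another in its size.

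The other factors had fewer than 200 reads on average, and their rates are coarser. SOX9 (chromosome 17, 70117161 to 70122557, plus strand), an HMG-box factor of mammary progenitors, gave 1.04%, 0.724% and 1.04% in the labeled DMSO libraries, from 66 to 189 reads. Unlabeled it gave 0.0293%, 0.0929% and 0.0179%, so that the groups stood well apart. ZEB1 (chromosome 10, 31607424 to 31818742, plus strand) gave 1.69%, 3.87% and 1.72% after the pulse from only 28 to 58 reads, and 0%, 0.0471% and 0% without it. ELF3 (chromosome 1, 201977073 to 201986311, plus strand), an ETS factor of epithelial differentiation, gave 1.40%, 4.78% and 5.00% after the pulse from 7 to 25 reads, and 0%, 0% and 0.214% without it. For ZEB1 and ELF3 too, every labeled library exceeded every unlabeled one, but the labeled values ranged widely. The groups were so separated for 7 of the 9 factors with reads and for 40.4% of the 16658 genes with reads. These genes include those with very few reads, whose ties at 0% cannot separate, so that this share is not matched for depth.

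GRHL1 (chromosome 2, 10091822 to 10142405, plus strand), the Grainyhead-like factor of epidermal differentiation, did not separate the groups, with labeled rates of 0%, 1.51% and 0.130% and unlabeled rates of 0%, 0.172% and 0%. OVOL1 (chromosome 11, 65554534 to 65564685, plus strand), a zinc-finger repressor of mesenchymal genes, gave 3.08%, 0% and 0.730% after the pulse, from 4, 1 and 7 reads, and 0% in all libraries without 4sU. Its rate could not be measured with any precision at this depth.

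With at least 50 reads in place of 200, SOX9 differed by 3.41 (SE 0.39, limma adjusted p = 0.0014) and ZEB1 by 5.20 (SE 0.47, adjusted p = 7.8e-04), whereas GRHL1 differed by 1.55 (SE 1.28, adjusted p = 0.32). ZEB1 met the requirement of a nonzero rate in 3 libraries through the labeled group, so its call had to point upward. ELF3 had too few reads for either minimum and has no test. Among the factors with at least 200 reads, the labeled rates of SNAI2 and TFAP2A were the highest and those of TP63 and EHF, whose labeled ranges overlapped, the lowest. ELF3 had the highest mean of all factors, from 7 to 25 reads, and GRHL1 the lowest median of the factors with reads, from 47 to 55 reads.

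The 3′ interval of ZEB1 was searched for matches to the miR-200 family, which is known to target this mRNA. Its 2553 bases matched an annotated 3′ UTR of ZEB1-204 on chromosome 10, from 31816190 to 31818741 on the plus strand (GENCODE annotation of GRCh37, used for position only). The mature miR-200 microRNAs fall into 2 seed groups, shown 5′ to 3′ from RefSeq with the seed, bases 2 to 8, in capitals, because their complements are what was searched.
hsa-miR-200b-3p: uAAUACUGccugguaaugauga
hsa-miR-200c-3p: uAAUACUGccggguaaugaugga
hsa-miR-429: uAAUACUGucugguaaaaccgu
hsa-miR-200a-3p: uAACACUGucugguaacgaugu
hsa-miR-141-3p: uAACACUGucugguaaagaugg

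The complement of the first seed, CAGTATT, occurred 6 times in the ZEB1 interval on the sense strand, the only strand searched. The windows below run 5′ to 3′ with the match in capitals, and are named by their position in the interval.
ZEB1 372: tatcttatCAGTATTatcactct
ZEB1 466: atccgcttCAGTATTttattatg
ZEB1 895: ccatttctCAGTATTttcaaggc
ZEB1 1246: ttacctatCAGTATTattttatt
ZEB1 1316: aaacctggCAGTATTaataccct
ZEB1 1967: atcattatCAGTATTttctttgg

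Of 9344 intervals that could be matched to an annotated 3′ UTR within 10 bases, out of 14291 considered (65.4%), 16.9% held this heptamer at least once. ZEB1 was the only one with 5 or more. These shares describe the matched intervals only and were not matched for length. The complement of the second seed, CAGTGTT, occurred 3 times in ZEB1, and 18.7% of intervals held at least 1. TFAP2A held 2 matches of each kind, TP63, SOX9 and EHF held 1 of the second kind, and ELF3, GRHL1 and OVOL1 held none. Matches are letters in a window, and no microRNA was measured here.

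The factors with high labeled rates were also compared by the AU-rich heptamer TATTTAT, which contains the pentamer ATTTA found in many short-lived mRNAs. TFAP2A held 4 copies, 2 of which overlap each other, ZEB1 held 3 and SOX9 held 2. EHF, GRHL1 and OVOL1 held 1 each and TP63 and ELF3 none, while 33.5% of matched intervals held at least 1. This share was not matched for length, and the intervals of these factors were all longer than the median of 1111.5 bases. The copies of TFAP2A lie in the 3′ UTR of TFAP2A-202 on the minus strand of chromosome 6, between 10396910 and 10398652 of GRCh37, and are shown with the heptamer in capitals.
TFAP2A 692: tctgtataTATTTATttatgtgt
TFAP2A 696: tatatattTATTTATgtgtaatt
TFAP2A 759: ttttttttTATTTATctgatctt
TFAP2A 1732: ttttatttTATTTATgttga
SOX9 1125: gctaaaatTATTTATtttgtaag
SOX9 1285: ttttttttTATTTATctctttaa
ZEB1 1371: aacttttaTATTTATgtgtctta
ZEB1 1400: tatttcttTATTTATtacacagt
ZEB1 2268: gatactatTATTTATattccttc

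Per kilobase of interval, ATTTA occurred 5.16 times in TFAP2A, 3.94 in SOX9 and 3.53 in ZEB1, at percentiles 91.1, 83.1 and 78.8 of matched intervals. The share of T in these 3 intervals was itself at percentiles 69.3, 90.1 and 90.6. ATTTA occurred 2.54 times in GRHL1, 2.16 in the main TP63 interval, 1.61 in ELF3, 1.38 in EHF and 0.533 in OVOL1. The median interval had 1.64. ELF3, with high labeled rates from few reads, had a density just below that median. SNAI2 had no matched interval and was not included.

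TP63 has alternative 3′ ends. The intervals of 2780 and 3061 bases, of the alpha and beta transcripts, held identical values and were counted once, while the interval of 1320 bases belongs to the gamma transcripts. The gamma end took 70 of 2544 reads over the 7 libraries, or 2.75% (95% Clopper-Pearson interval 2.15% to 3.46%, counting error only). Per library its share ran from 1.19% (0.388% to 2.76%) in the second DMSO library to 4.01% (2.26% to 6.53%) in the first, and these 2 intervals overlap. Reads from a 3′ end do not tell the TA from the deltaN forms of TP63, which differ at the start of the mRNA.

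**Figure D2:**
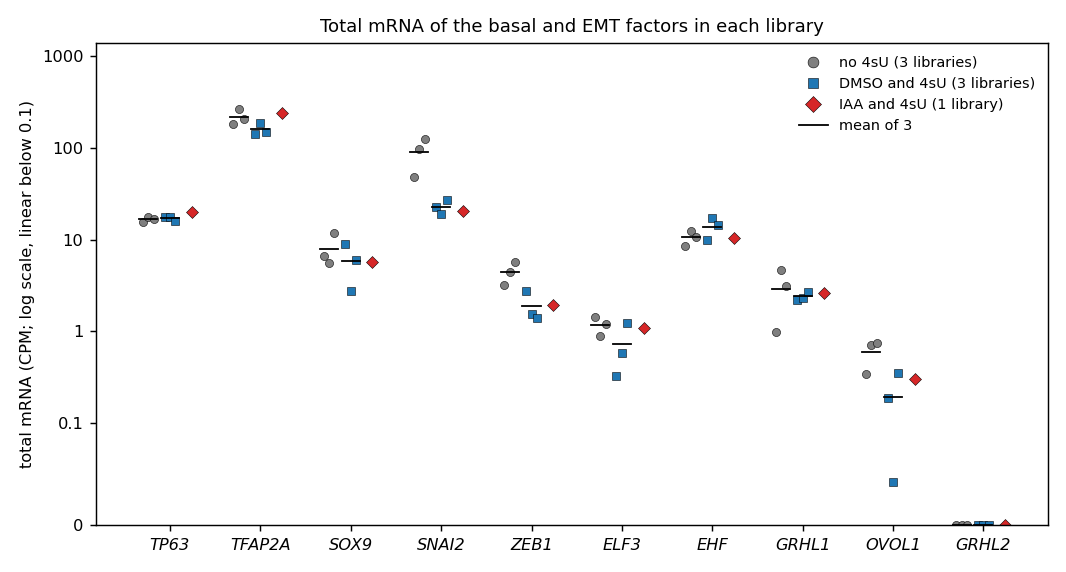
Total mRNA in CPM (log scale, linear below 0.1) of the 10 factors in the 3 libraries without 4sU (circles), 3 with DMSO and 4sU (squares) and 1 with IAA and 4sU (diamond); bars are means of 3. SNAI2 and ZEB1 are lower in all labeled libraries than in any library without 4sU, and the other 8 factors overlap between the groups.

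Total mRNA was then compared between the labeled and unlabeled cultures. SNAI2 fell. It was at 48.2, 97.1 and 126 CPM in the libraries without 4sU. In those with DMSO and 4sU it was at 22.6, 18.8 and 26.8 CPM, all below the lowest unlabeled library. The mean went from 90.5 ± 39.4 to 22.8 ± 4.01 CPM (SD, n = 3 each), and the difference on the log2(CPM + 1) scale was -1.92 (SE 0.34, limma adjusted p = 0.021). Among 11842 genes tested, 1.8% were lower and 0% higher, or 213 and 0 genes. At an unadjusted p under 0.05, 1003 were lower and 219 higher, and edgeR on the recovered reads called 190 lower and 0 higher. The call for SNAI2 rested on the full set of libraries. It was lost in 5 of the 6 fits that left out 1 library, where the difference stayed between -1.59 and -2.01 with adjusted p of 0.057 to 0.11, and kept only without the first library lacking 4sU. It was also kept by edgeR (-2.04, adjusted p = 0.017) and DESeq2 (-2.06, adjusted p = 1.6e-07). With the replicate number as a block it was kept (limma adjusted p = 0.012), and with no filter on low values it was lost (limma adjusted p = 0.059). The fits that left out 1 library did not use the block.

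ZEB1 was the other factor whose groups did not overlap, which was so with lower labeled values for 8.39% of genes and with higher ones for 7.76%. ZEB1 was at 3.21, 4.47 and 5.63 CPM without 4sU. It was at 2.72, 1.54 and 1.39 CPM with DMSO and 4sU. The difference of -0.97 (SE 0.26) did not pass, with a limma adjusted p of 0.12. It passed with DESeq2 (-1.29, adjusted p = 0.026) and without the first library lacking 4sU (-1.18, adjusted p = 0.030).

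TFAP2A was at 180, 262 and 208 CPM without 4sU and at 141, 187 and 150 CPM with DMSO and 4sU, and the groups overlapped by 1 library each way. It was lower with 4sU in each of the 3 same-numbered pairs. Its difference was -0.50 (SE 0.21, limma adjusted p = 0.43, and 0.10 with the replicate number as a block). TP63 was at 15.5, 17.7 and 16.7 CPM against 17.6, 17.5 and 15.9 CPM, with overlapping groups and a difference of -0.03 (SE 0.16, adjusted p = 0.97). EHF was at 8.55, 12.4 and 10.7 CPM against 9.82, 17.1 and 14.4 CPM, higher in each of the 3 pairs, with a difference of 0.28 (SE 0.24, adjusted p = 0.80, and 0.41 with the block). SOX9 (-0.48, SE 0.37), ELF3 (-0.40, SE 0.22) and GRHL1 (-0.14, SE 0.35) had adjusted p of 0.76, 0.63 and 0.94. OVOL1 was at 0.346, 0.715 and 0.737 CPM against 0.188, 0.0416 and 0.349 CPM and was too low to enter the test.

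**Figure D3:**
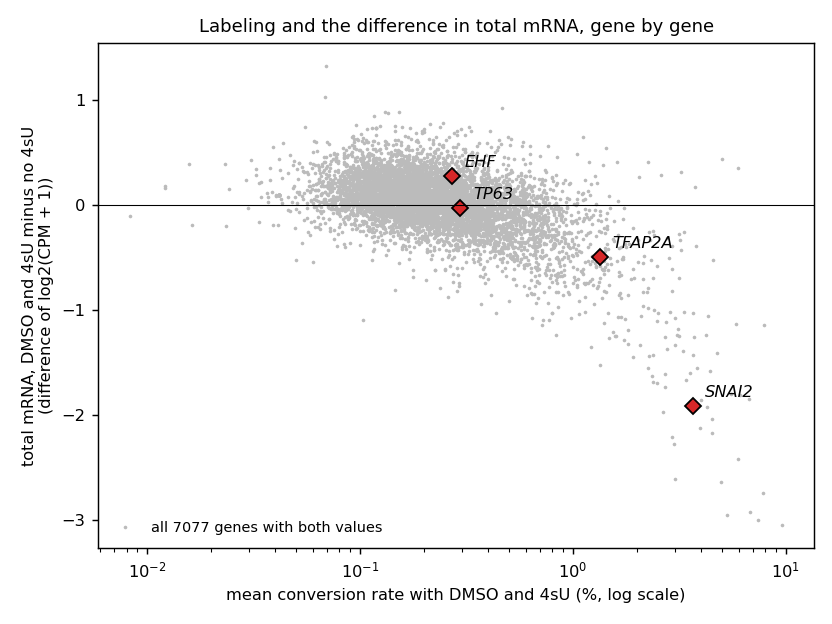
Difference in total mRNA between the DMSO and 4sU and the no 4sU libraries (log2(CPM + 1)) against the mean conversion rate with DMSO and 4sU (percent, log scale), with 1 gray dot for each of 7077 genes and diamonds for the 4 factors with enough reads. Strongly labeled genes tend to lie below 0, with a median of -0.71 over the 169 other genes labeled at least as much as TFAP2A. SNAI2 sits at 3.64% and -1.92.

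The fall of SNAI2 was one of many among strongly labeled genes. Of the 30 other genes labeled at least as much as SNAI2, 23 (76.7%) were lower in total mRNA past the threshold, with a median difference of -1.69, and 11 of the 30 had a difference at least as negative as that of SNAI2. Over all 11842 genes, SNAI2 had the 26th most negative difference. For TFAP2A, the 169 other genes at or above its rate had a median difference of -0.71, and 65 of them (38.5%) were lower. At the rate of TP63 and above, the median was -0.10 over 2165 other genes, and 4.11% were lower. The labeled rate and the difference in total mRNA both use the DMSO and 4sU libraries and are not independent. The part of the labeling in the lower total mRNA was not tested.

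The paralogs and partners of the factors came from a list of 22 relatives. In total mRNA, 12 of them were tested and only SNAI1 (Snail) was lower and none higher, beside 1.8% and 0% of all genes. SNAI1, an EMT repressor of the same family as SNAI2, went from 4.27 ± 0.0488 to 0.917 ± 0.649 CPM (SD, n = 3 each), a difference of -1.55 (SE 0.24, limma adjusted p = 0.010). Without DMSO replicate 2 or replicate 3 the difference was -1.50 or -1.33, with adjusted p of 0.060 and 0.062. It was at 1.50 CPM with IAA. Its labeled rate averaged 3.85% ± 2.36 (SD, n = 3), close to the mean of SNAI2, but it had too few reads for the rate test at 200 reads. At a minimum of 50 reads its rate differed by 4.64 (SE 0.48, limma adjusted p = 0.0012). That minimum is an average over labeled and unlabeled libraries, and the labeled ones held far fewer reads of SNAI1. With 1 read equal to 0.0416 to 0.0498 CPM in the DMSO libraries, its labeled rate rests on few reads and is coarse. SNAI3 and SOX10 were among 5 relatives that were at 0 in every library.

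In the rate, 5 of 7 relatives tested were higher and none lower, with a median of 1.84, beside 65.4% of genes and a median of 1.14. SOX4, an HMG-box factor linked to EMT, had the highest labeled rate among those tested at 1.72% ± 0.305 (SD, n = 3), with a difference of 4.23 (limma adjusted p = 7.0e-05), and its total mRNA differed by -0.14 (SE 0.22, adjusted p = 0.90). ELF2, a broadly expressed ETS factor, was next at 0.742% ± 0.279 (SD, n = 3).

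The 15 genes on which these factors are known to act, among them junction proteins and splicing regulators of the epithelial state, were taken from a list of their own. In the rate 8 of 12 tested were higher, beside 65.4% of all genes, and none lower, with a median difference of 0.82 beside 1.14 over all genes. In total mRNA 0 of 13 passed in either direction by limma, beside 1.8% of all genes lower and 0% higher. ESRP2, an epithelial splicing regulator, had the highest labeled rate at 0.685% ± 0.190 (SD, n = 3). CDH1, the E-cadherin gene that SNAI2 and ZEB1 repress, was at 128 ± 54.0 and 153 ± 43.2 CPM (SD, n = 3 each) without and with 4sU, a difference of 0.24 (SE 0.34, limma adjusted p = 0.89). CDH2, encoding N-cadherin, differed by 0.28 (SE 0.18, adjusted p = 0.70).

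**Figure D4:**
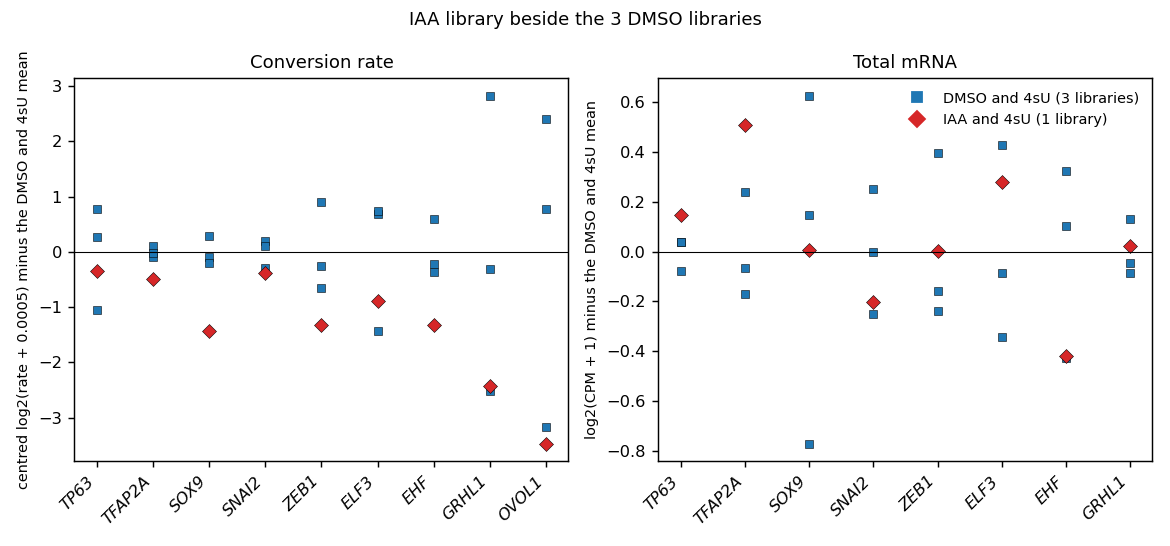
Difference of each labeled library from the mean of the 3 DMSO and 4sU libraries, on the centered log2(rate + 0.0005) scale with no minimum of reads (left) and the log2(CPM + 1) scale (right), for the 3 DMSO libraries (squares) and the IAA library (diamond). In the rate the IAA library lies below the DMSO mean for all 9 factors shown, GRHL1 and OVOL1 being at 0%, and for 50.1% of all genes. In total mRNA it lies above the DMSO range for TFAP2A and TP63, as for 21.3% of genes.

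The last comparison asked whether loss of JUN changed the share of each mRNA that was made during the pulse. This share is a fraction of a total that can itself differ. With 1 IAA library it has no replicate check. SNAI2 was at 3.10% with IAA, below the 3.55% to 3.79% of the DMSO libraries, and TFAP2A was at 1.05%, below 1.20% to 1.50%. EHF was at 0.0797%, below 0.158% to 0.473% and inside the range without 4sU. TP63, at 0.231%, lay within its DMSO range. The rate as a fraction, multiplied by CPM, gave another order for TFAP2A. Its product was 2.51 with IAA, above the 1.81 to 2.42 of the DMSO libraries. For SNAI2 it was 0.640, below 0.713 to 0.965, and for EHF 0.00830, below 0.0228 to 0.0465. For TP63 it was 0.0464, within 0.0232 to 0.0723. This product was not compared over all genes.

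After each library was centered on its median gene, the IAA library differed from the DMSO mean by -0.35 for SNAI2, -0.44 for TFAP2A, -1.29 for EHF and -0.30 for TP63 on the log2(rate + 0.0005) scale. Of these 4, SNAI2, TFAP2A and EHF were lower than every DMSO library, as were 25.6% of the 7074 genes compared, while 24.1% were higher than every one and 49.6% were either. EHF alone also lay at least 1 log2 unit below the DMSO mean. Of the genes, 5% did so and 4.59% lay as far above it, or 9.6% together. The same rule applied to each DMSO library against the other 3 labeled libraries called 10.8%, 11.6% and 9.17% of genes, and 2, 0 and 1 of the 4 factors. The share of genes past this limit was thus similar in the DMSO libraries, and without the first DMSO library EHF was no longer called, at -0.98. Of 220 genes with a labeled rate of at least 1%, the IAA library was below the DMSO range in 36.4% and above it in 15%, with a median difference of -0.11, and SNAI2 and TFAP2A are among these genes.

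SOX9 and ZEB1, with fewer reads, were below their DMSO ranges as well. SOX9 was at 0.350% with IAA, against 0.724% to 1.04% with DMSO. ZEB1 was at 0.975%, from 39 reads, against 1.69% to 3.87%. The rate as a fraction times CPM was 0.0201 for SOX9 with IAA, inside its DMSO range of 0.0199 to 0.0925. For ZEB1 it was 0.0190, below 0.0240 to 0.0596. ELF3, at 1.92% from 22 reads, lay within its wide DMSO range, and GRHL1 and OVOL1 had no conversion in 52 and 6 reads, as also happened in 1 DMSO library each.

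With no minimum of reads and after centering, all 9 factors with reads were below the DMSO mean, beside 50.1% of 11378 genes. GRHL1 and OVOL1, at 0% with IAA, had no lower rate to take, so their direction says little. By another measure, of the 220 genes labeled at 1% or more, 36.4% were below the DMSO range and 15% above it, with a median difference of -0.11. That is a share outside the range, and the share of these genes below the DMSO mean was not computed. The IAA library was the lowest of the 4 labeled libraries for 5 of the 9 (24.1% of genes) and the highest for none (22.4% of genes). The first DMSO library was the lowest for TP63 and ELF3 and for 24.4% of genes, and the remaining DMSO libraries for none of the factors. EHF, SOX9 and ZEB1 were below every DMSO library and also at least 1 log2 unit below the DMSO mean, at -1.33, -1.44 and -1.32, as were 8.21% of genes. GRHL1 and OVOL1 were tied at 0% between the IAA library and a DMSO library, so that no library was the lowest for them, and their differences from the DMSO mean were -2.43 and -3.47. The value of OVOL1 rests on 1 to 7 reads per labeled library.

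In total mRNA none of the 8 factors compared was both outside the DMSO range and at least 1 log2 unit from the DMSO mean. Of 11824 genes, 0.178% were, 0.127% above and 0.0507% below. TFAP2A was at 239 CPM with IAA, above the 141 to 187 CPM of the DMSO libraries, by 0.51 on the log2(CPM + 1) scale. TP63 was at 20.0 CPM, above 15.9 to 17.6 CPM, by 0.15. To lie outside the range was common, with 21.3% of genes above it and 20.4% below it, or 41.6% together. SNAI2 (20.6 CPM), ZEB1 (1.94 CPM), SOX9 (5.73 CPM), EHF (10.4 CPM), ELF3 (1.10 CPM) and GRHL1 (2.59 CPM) were within it, as was OVOL1 at 0.299 CPM. For SNAI2 the IAA library was thus as low in total mRNA as the DMSO libraries, all 4 labeled libraries lying below every unlabeled one. For TFAP2A it lay inside the unlabeled range of 180 to 262 CPM.

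Among the relatives, 1 of 6 was called in the rate with IAA, ELF4, an ETS factor, at -1.52, and among the 12 target genes 1 was called, ESRP2, at -1.23, beside 9.6% of genes. No relative and no target gene was called in total mRNA.

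JUN acts in AP-1 dimers at the motif TGACTCA, which was searched on both strands of the members' promoters, taken from RefSeq (GRCh38.p14) as 250 bases before to 50 after a start site. There were 14 such promoters of 6 members, 7 of them of ZEB1, and none held the motif, which 4.95% of 35116 promoters held. The E-box CAGGTG, which SNAI and ZEB factors bind, was found in 3 of the 14, against 20.6% of all promoters. A ZEB1 promoter held 3 copies, as 0.635% of promoters did. The windows are named by the position of the first E-box base from the start site, with the E-box in capitals as CAGGTG or its complement.
ELF3 -120 (chr1:202010458-202010481, plus strand): tatgcaaatCACCTGgggccagga
ZEB1 -57 (chr10:31318351-31318374, plus strand): aggtgacagCAGGTGagggccggg
ZEB1 -242 (chr10:31318966-31318988, plus strand): ccccaccaCACCTGaggaaaact
ZEB1 -85 (chr10:31319122-31319145, plus strand): gtcgtaaacCAGGTGcggtgggga
ZEB1 34 (chr10:31319240-31319263, plus strand): ggatggcccCAGGTGtaagcgcag

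The last 3 windows belong to the same ZEB1 promoter. ELF3, which has the promoter with the only E-box outside ZEB1, also held TATAAA there, as did 1 promoter of TFAP2A. The TP63 promoter held only the complement, TTTATA, at the very end of its window, after the start site. Counted on either strand and at any position, the motif was in 11.5% of all promoters. The TEAD motif GGAATG was in 1 ZEB1 promoter and in 14.03% of all.

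Last, the genes whose total mRNA ran most like each well-read factor over the 7 libraries were found by Pearson's r of log2(CPM + 1) among 7079 genes. SNAI2 ran most like RND3 (r = 0.997) and INTS6 (r = 0.989), TFAP2A like NR2F2 (r = 0.971) and UBE3B (r = 0.958), TP63 like MID1IP1 (r = 0.975) and HSPA1B (r = 0.967), and EHF like LTBP1 (r = 0.983) and ALG5 (r = 0.980). HSPA1B has a near-identical copy, so its reads are uncertain. Among the factors themselves, TFAP2A ran more like TP63 (r = 0.70) and SNAI2 (r = 0.61) than SNAI2 like EHF (r = -0.05). These correlations describe 7 libraries that differ in treatment and in depth. SNAI2 was lower in every labeled library than in any unlabeled one, so its correlations include that contrast. The genes outside the factors were picked for the highest r among the 7079. How much of each r came from differences between the treatment groups was not tested.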

How the data were processed

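Reads of 3′ mRNA libraries were processed by the authors with the SLAM-Seq pipeline of Nextflow, whose settings are not given in the sources used here. Per the labels the genome build was hg19. The deposited table gives for each 3′ interval and library a T>C conversion rate, a fraction with no background subtracted, and a read signal scaled to library size that the authors named CPM. No per-sample column was left out. Per the file headers, intervals carry RefSeq identifiers, which were matched to genes by a RefSeq table of GRCh38.p14, used for names only (97.7% of rows). All nonzero deposited CPM were whole multiples of 1 read (100%, tolerance 0.01), which gave reads and library totals. Intervals of a gene with identical values were counted once. Reads of the others were summed and rates averaged with weight by reads.

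Rates were tested as log2(rate + 0.0005) in genes with at least 200 reads on average and a nonzero rate in 3 or more of 6 libraries. Total mRNA was tested as log2(CPM + 1) with TMM library sizes in genes with at least 0.5 CPM in at least 3 of 6 libraries. Both used limma (3.58.1, R 4.3.3; trend, robust) with Benjamini-Hochberg adjustment over all genes tested and a threshold of 0.05. Alternatives on total mRNA used edgeR (4.0.16), which called 190 genes, and DESeq2 (1.42.0) on the recovered reads. The fits were tested on simulated data, where the rate fit with no minimum of reads made more false calls than its threshold allows, so no call from it is given. The minimum of 50 reads was not simulated. Libraries tied at a rate of 0 were not counted as lowest, a choice made after seeing the data. The IAA library was called different where its value was beyond every DMSO library and 1 or more log2 units away from the DMSO mean. For IAA the rates were centered on each library's median and needed to be nonzero in 2 or more of 4 labeled libraries. Positions of 3′ UTRs came from the GENCODE annotation of GRCh37. All 10 members are named, with the 2 most similar genes of each member with at least 200 reads, the 2 relatives and 2 targets with the highest labeled rates, and relatives or targets past a threshold, except for an item that is not reported here. The members and lists were chosen with earlier results of these data known. CDH1, CDH2 and the cell type markers were named after their values were seen.

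Replicate numbers paired the libraries in total mRNA, where deviations of same-numbered libraries from their group means correlated at 0.41, 0.33 and 0.49, and not in the rates, at -0.0073, -0.00082 and 0.010.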

Additional observations from a re-analysis of the deposited data

How the results depend on the processing

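In total mRNA, where 213 genes and 1 of the factors passed, leaving out 1 library gave 69 to 354 genes and 0 to 2 factors, and leaving out both libraries numbered 1 gave 484 genes and 3 factors (SNAI2, ZEB1 and TFAP2A). DESeq2 gave 418 genes and 2 factors. With no filter on low values 0 factors passed. The difference of TP63 changed sign without no 4sU replicate 2 or 3 or DMSO replicate 3 (range -0.147 to 0.0363, both libraries numbered 1 left out included), with the interval with most reads (0.0018) and without TMM (0.0285), and that of GRHL1 without no 4sU replicate 2 (range -0.59 to 0.20), none of them past the threshold. With the replicate block, 284 genes passed in total mRNA, 208 of them shared with the fit without it, and SNAI2 remained. In the rates the block left SNAI2, TFAP2A and TP63 called and gave EHF an adjusted p of 0.058 by limma. Averaging intervals without weights, chosen after seeing the data as was the loss of both libraries numbered 1, left 2 factors called in the rate. For the IAA library 679 genes and 1 factor were called in the rate, against 416 genes with a pseudocount of 0.001, 1584 genes and 2 factors with at least 50 reads, and 2338 genes and 4 factors with no minimum, OVOL1 among them only through the centering of equal rates of 0. Leaving out 1 DMSO library gave 0 to 1 factors. In total mRNA 21 genes were called, against 52 with a pseudocount of 0.5 CPM and 16 to 104 without 1 DMSO library, the highest without the first. The causes of these changes were not tested. Which replicate the IAA library holds is not known. Over 7083 genes its values correlated at r = 0.991 with the first DMSO library, 0.964 with the second and 0.978 with the third. Whether it holds replicate 1 was not tested. Since replicate numbers paired the libraries in total mRNA, a difference of replicate and one of IAA cannot be told apart there. Depth limits ZEB1, ELF3, GRHL1 and OVOL1, whose rates rest on at most 107 reads per library.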

Other observations

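Of the 10 luminal markers, 5 were tested in the rate, and 4 were higher, beside 65.4% of all genes, and none lower. GATA3, a zinc-finger factor of luminal differentiation, had a labeled rate of 1.12% ± 0.470 (SD, n = 3), a difference of 3.45 from the libraries without 4sU (limma adjusted p = 4.1e-04), and XBP1, a bZIP factor of the secretory stress response, had 1.04% ± 0.199 (SD, n = 3) and a difference of 3.55 (limma adjusted p = 9.9e-05). The keratins KRT8 and KRT18 had labeled rates of 0.324% ± 0.0361 and 0.307% ± 0.117 (SD, n = 3 each), and MUC1, a mucin, had 0.0723% ± 0.0962 (SD, n = 3), against 0.0960% without 4sU. FOXA1, a pioneer factor of luminal cells, averaged 2.62% ± 1.31 (SD, n = 3) but had too few reads for the test. In total mRNA GATA3 was at 25.0 ± 4.12 CPM without 4sU and 16.7 ± 0.680 CPM with it (SD, n = 3 each), a difference of -0.61 that did not pass (SE 0.18, limma adjusted p = 0.19).

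Among the 10 basal markers, 8 of 9 tested were higher in the rate, beside 65.4% of all genes, and none lower, with a median difference of 0.84, below that of all genes tested (1.14). LAMB3, a laminin-332 chain, stood out at 0.919% ± 0.178 (SD, n = 3) and the desmosomal cadherin DSG3 at 0.661% ± 0.283 (SD, n = 3), against 0.189% ± 0.0294 (SD, n = 3) for the keratin KRT5. None of the 10 basal markers passed the test in total mRNA by limma, beside 1.8% of all genes lower. These genes were picked after their values were seen.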
